A study of Homo sapiens with 6 samples.

Results

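The genes described here are 55 genes of the mitotic spindle, the kinetochore and cytokinesis, chosen by symbol from the functions of their proteins. All 55 symbols were matched to a row among the 57905 rows of the count table, and all 55 were among the 16565 genes that passed the filter on low counts. They fall into 10 groups by role, which are the chromosomal passenger complex, the spindle checkpoint, the anaphase trigger, mitotic entry, the Ndc80 complex, the centromere, spindle assembly, the kinesins, cytokinesis, and the condensins with TOP2A.

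In mitosis the duplicated chromosomes are condensed, captured by microtubules at the kinetochores and drawn apart by the spindle, after which the cytoplasm is divided by cytokinesis. The messenger RNAs of many of the proteins involved are low in G1, rise through S phase and peak in G2 and mitosis. Their promoters are known for a short element, the cell cycle genes homology region (CHR), which is bound by the MuvB core. MuvB is part of the repressive DREAM complex in quiescent or arrested cells and joins the activators B-MYB and FOXM1 in dividing ones. p53 induces the cyclin-dependent kinase inhibitor p21, encoded by CDKN1A, and this is the textbook route by which active p53 is linked to lower expression of such genes. CCAAT boxes, bound by the factor NF-Y, often accompany the CHR.

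RNA was sequenced from HCT116, a human colorectal carcinoma cell line whose p53 response is wild type, after 1 h or 10 h of Nutlin-3a, a small molecule that blocks the binding of p53 to its inhibitor HDM2 (MDM2). Control cells received the vehicle DMSO and are called Nut 0h. Each of the 3 conditions (Nut 0h, Nut 1h and Nut 10h) had 2 libraries, and all libraries come from this 1 cell line with no allele or agent other than those named. The comparison asks how the expression of these genes differs early and late after p53 was activated.

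The libraries held between 26068076 and 35473485 counts. Of the 2 genes that check the treatment, MDM2 rose at both times (log2 fold changes of 2.19 and 3.75), while CDKN1A gave 0.046 (SE 0.10, adjusted p = 0.704) at 1 h and 3.84 (SE 0.11, adjusted p = 1.03e-10) at 10 h. With an offset for the GC content of the transcripts in the fit, CDKN1A rose at 1 h too (0.70, adjusted p = 3.04e-06), as it did with an offset for transcript length (0.29, adjusted p = 0.0127). Of 10 markers of colorectal epithelium 7 were high enough to be tested, among them EPCAM, CDH1, KRT8, KRT18, KRT19 and CDX2, whereas CDX1, VIL1 and CEACAM5 had at most 12 counts in any library. Of the 14 markers of leukocytes, endothelium, fibroblasts, smooth muscle and liver, 6 were high enough to be tested. The 14 summed to between 27.8 and 62.0 CPM (counts scaled by the library total) per library. PTPRC, CD3E, CDH5 and COL3A1 had 2 counts or fewer in every library. COL1A1 was the highest of the 14, with 621 to 1484 counts. The smooth muscle actin gene ACTA2 moved from 69 and 80 counts in vehicle to 653 and 744 after 10 h. All libraries are labelled as the 1 line HCT116, and the source of these counts was not tested.

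The whole set was lower after 10 h of Nutlin-3a. All 55 genes fell at Nut 10h against Nut 0h by edgeR's quasi-likelihood test (Benjamini-Hochberg adjusted p of 0.05 or less, adjusted over all genes tested), and none rose. In the same comparison 14.9% of all genes tested fell and 14.1% rose. The median log2 fold change was -1.50 over the 55 genes and 0.00 over all genes tested, and 51 of the 55 (92.7%) had a log2 fold change of -1 or lower against 3.82% of all genes. In all 55 genes both Nut 10h libraries lay below both Nut 0h libraries, which held for 30.4% of all genes tested.

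The values ran from -2.41 for CDC25A to -0.26 for BUB3. Only 29 of the 16565 genes had a lower log2 fold change than CDC25A, and 4085 had a lower one than BUB3. Summed over the 55 genes, the normalized counts (counts scaled to a common effective library size) were 233882 and 230162 in vehicle, 255999 and 258795 after 1 h, and 96656 and 95106 after 10 h. These genes thus took 0.682% and 0.697% of the counts of the vehicle libraries and 0.286% and 0.292% of those at Nut 10h. In bulk RNA, fewer cells in G2 and mitosis and less RNA of these genes per cell cannot be told apart. The study calls the 2 libraries of a condition biological replicates, but the sources used here do not describe separate cultures, so the p-values measure the spread between these libraries.

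**Figure D1:**
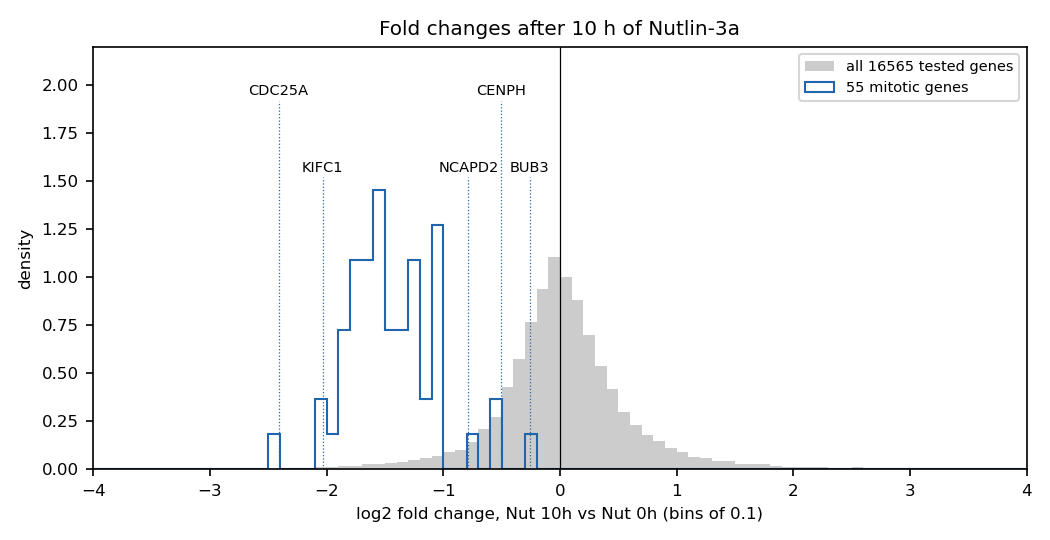
Distribution of log2 fold changes at Nut 10h against Nut 0h for all 16565 tested genes (grey) and the 55 mitotic genes (blue outline), as densities in bins of 0.1. The mitotic genes lie between -2.41 and -0.26, all below 0, and the grey distribution is centred on 0.00.

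After 1 h of Nutlin-3a the picture was mixed. Of the 55 genes 33 rose, 11 fell and 11 were not called at Nut 1h against Nut 0h, where 34.5% of all genes tested rose and 32.3% fell. The median log2 fold change was 0.40 over the 55 genes and 0.05 over all genes tested. The rises were led by CENPF (1.16), KIF14 (1.09) and MAD2L1 (1.02), and the falls by CENPM (-0.96), CDC25B (-0.87) and CDC20 (-0.82).

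The fold changes at 1 h were ordered by the GC content of the transcripts. Across the 55 genes, which share the same 4 libraries, Pearson's r between the log2 fold change at 1 h and the GC content of the longest transcript was -0.90 and Spearman's rho -0.89. Across the 16137 tested genes with a GC value r was -0.69. All 19 genes under 40% GC rose, as did 82.6% of all tested genes in that range. Of the 14 genes at 50% GC or more 9 fell and 1 rose, against 62.8% and 5.21% of all tested genes in that range. The single gene that rose there was CDC25A.

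When an offset for GC content was added to the fit, 8 of the 55 genes rose and 13 fell at 1 h, against 20.0% and 25.3% of all genes tested, and the median of the 55 became -0.091. Under this offset 20 of the 44 genes called at 1 h had a log2 fold change of the opposite sign. The rises that stayed called with the offset were those of CDC25A (0.64), CENPF (0.51), KIF14 (0.32), NUSAP1 (0.27) and MAD2L1 (0.26), and the falls were those of CENPA (-0.78), UBE2C (-0.57), PTTG1 (-0.51) and AURKB (-0.32). At 10 h the same correlation was -0.12 across the 55 genes, and all 55 fell with the offset too, with a median of -1.55, where 22.5% of all genes tested fell and 16.6% rose. Every value at 1 h given hereafter is from the fit without the offset unless the offset is named.

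**Figure D2:**
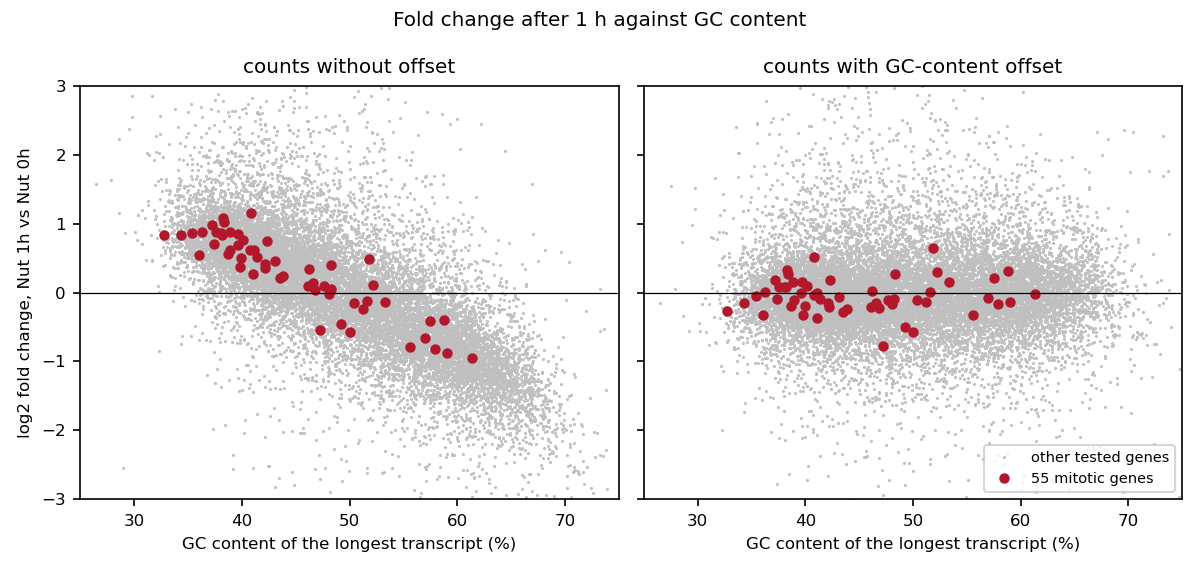
Log2 fold change at Nut 1h against Nut 0h by GC content of the longest transcript (%), without (left) and with (right) the GC-content offset, for the 55 mitotic genes (red) and the other tested genes (grey). The red points run from the upper left to the lower right without the offset (r = -0.90) and lie flat around 0 with it (r = 0.01). The offset is itself fitted to GC content, so the flat course is not a separate result. Points beyond 3 on the vertical axis or outside 25% to 75% GC are not drawn.

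Promoter windows from RefSeq (GRCh38.p14, 250 bases before to 50 bases after each transcription start) were matched by symbol for 46 of the 55 genes, which had 57 windows. Those not matched were BIRC5, BUB3, TTK, UBE2C, CENPH, CENPM, AURKA, TPX2 and RACGAP1. The CHR letters TTTGAA were found on either strand in 34 of the 46 genes (73.9%), compared with 13.6% of 11280 tested genes and 18.2% of 27305 genes with a window. In 23 of the 46 genes a match began between 60 bases before and 10 bases after the start, which was the case in 3.38% of tested genes. CCAAT, read on either strand, was found in 35 of the 46 genes (76.1%) against 42.8% of tested genes, and at least 2 copies in 1 window in 23 genes against 16.0% of tested genes. TTTGAA and CCAAT stood in the same window in 26 genes (56.5%) against 5.63%. The E2F letters, searched as TTTCCCGC and as its variants TTTCGCGC and TTTGCCGC and TTTGGCGC on both strands, were found in CDC25A, CENPA, KIF15 and NUSAP1 only, or 8.70% against 6.41%. A match is a description of the letters and not evidence of binding.

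The windows below are shown because TTTGAA lies close to the start in them. They are the 110 bases directly before the start, 5′ to 3′ on the strand of the gene, of the 8 genes with the largest falls at 10 h whose TTTGAA lies wholly within those bases, followed by CDC25A, the gene with the largest fall, which has no TTTGAA. Capitals mark TTTGAA and CCAAT or their reverse complements TTCAAA and ATTGG. On GRCh38.p14 the stretches are chr2:26785946-26786055 on the plus strand for CENPA, chr1:37692406-37692515 on the plus strand for CDCA8, chr10:92593020-92593129 on the plus strand for KIF11, chr12:53268189-53268298 on the plus strand for ESPL1, chr15:69414239-69414348 on the plus strand for KIF23, chr15:40160959-40161068 on the plus strand for BUB1B, chr1:43358871-43358980 on the plus strand for CDC20, chr7:36389752-36389861 on the plus strand for ANLN, and chr3:48188418-48188527 on the minus strand for CDC25A.
CENPA: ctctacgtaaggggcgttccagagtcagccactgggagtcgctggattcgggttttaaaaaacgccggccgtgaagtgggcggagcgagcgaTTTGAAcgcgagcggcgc
CDCA8: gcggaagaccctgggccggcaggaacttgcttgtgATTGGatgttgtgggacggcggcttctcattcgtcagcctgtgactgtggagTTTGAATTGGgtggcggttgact
KIF11: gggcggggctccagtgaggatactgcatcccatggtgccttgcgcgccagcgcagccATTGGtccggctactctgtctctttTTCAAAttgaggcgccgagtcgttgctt
ESPL1: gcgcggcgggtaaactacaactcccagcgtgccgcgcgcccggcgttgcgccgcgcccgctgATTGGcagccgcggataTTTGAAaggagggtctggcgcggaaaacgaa
KIF23: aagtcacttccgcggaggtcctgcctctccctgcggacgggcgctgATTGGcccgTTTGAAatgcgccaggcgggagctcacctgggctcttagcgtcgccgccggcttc
BUB1B: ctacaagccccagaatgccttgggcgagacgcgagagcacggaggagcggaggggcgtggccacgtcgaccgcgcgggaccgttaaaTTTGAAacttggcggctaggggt
CDC20: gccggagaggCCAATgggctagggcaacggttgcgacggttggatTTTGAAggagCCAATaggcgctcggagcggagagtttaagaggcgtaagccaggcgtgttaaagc
ANLN: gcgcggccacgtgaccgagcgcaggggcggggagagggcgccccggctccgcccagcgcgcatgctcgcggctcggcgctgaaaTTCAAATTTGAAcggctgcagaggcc
CDC25A: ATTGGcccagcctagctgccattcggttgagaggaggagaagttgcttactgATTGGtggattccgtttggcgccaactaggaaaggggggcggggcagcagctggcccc

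In CDCA8, KIF11, ESPL1, KIF23 and CDC20 a CCAAT letter group stands within the shown bases beside TTTGAA, and in CDCA8 the matches overlap by 1 base. CENPA, BUB1B and ANLN hold TTTGAA without CCAAT in these 110 bases, and ANLN holds 2 copies of the element, 1 on each strand. CDC25A has 2 copies of ATTGG and, at 44 bases before its start, the E2F letters. The falls were of like size with and without TTTGAA, and the difference was not tested. The 34 genes with it had a median log2 fold change of -1.50 at 10 h, ranging from -2.05 to -0.78, and the 12 without it had a median of -1.60, ranging from -2.41 to -0.50. These 12 were AURKB, BUB1, CDC25A, CDC25B, CENPE, CENPI, CENPK, KIF20A, KIF2C, NCAPH, PTTG1 and SPC24.

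**Figure D3:**
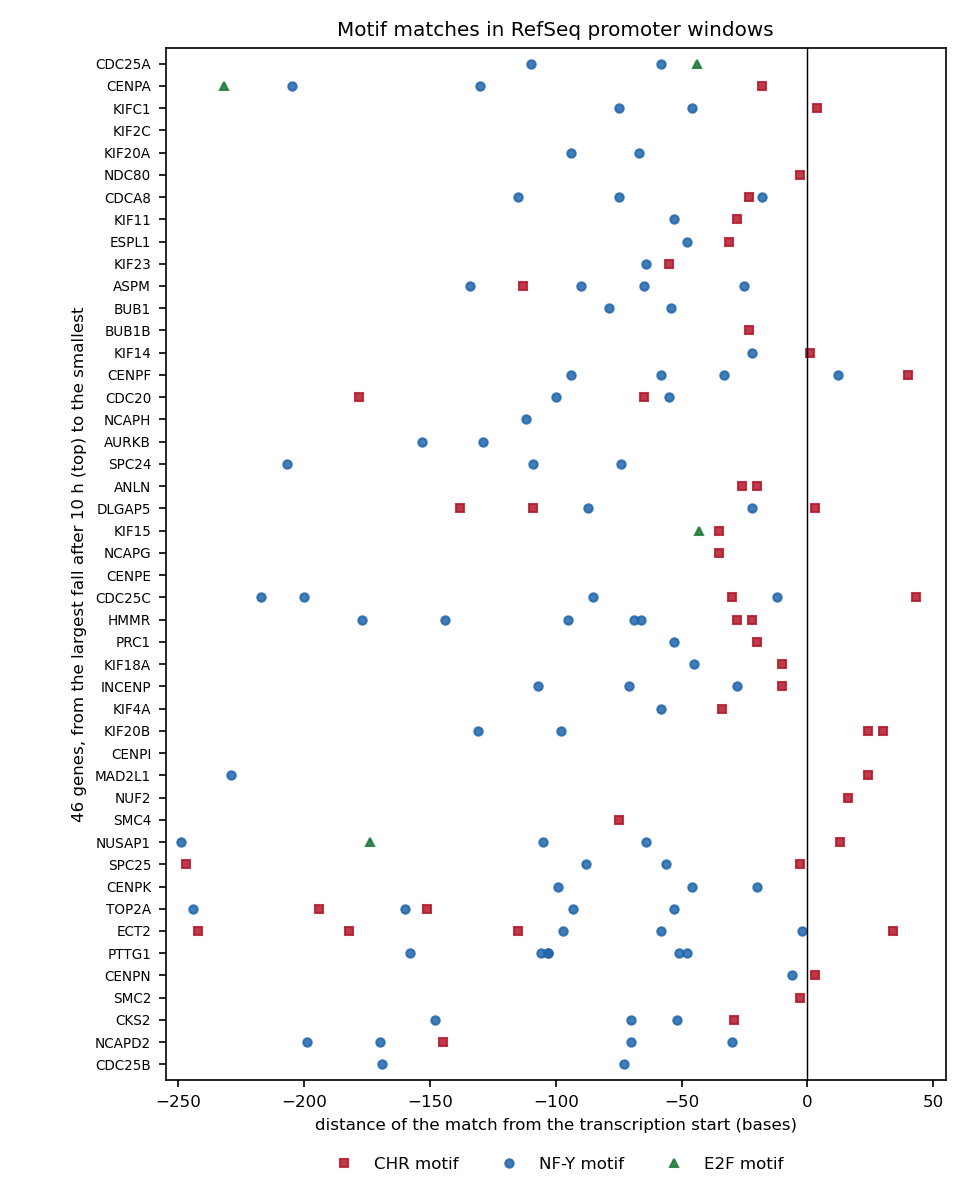
Positions of CHR (red squares), NF-Y (blue circles) and E2F (green triangles) letter matches relative to the transcription start (bases) in the RefSeq windows of 46 genes, all windows of a gene on 1 line. Genes are ordered from the largest fall at 10 h (CDC25A) to the smallest (CDC25B), and red squares within 60 bases before the start occur along the whole order.

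The chromosomal passenger complex, which corrects faulty attachments of microtubules and later guides cytokinesis, consists of the kinase AURKB, the scaffold INCENP, survivin (BIRC5) and borealin (CDCA8). All 4 genes fell at 10 h, with log2 fold changes from -1.81 to -1.42. CDCA8 (chr1:38158153-38175391 on GRCh37) had 3655 and 3436 normalized counts in vehicle, 2822 and 3193 after 1 h, and 1010 and 1005 after 10 h. Both Nut 10h libraries stood far below the other 4, and the fall at 10 h was 3.52-fold, -1.81 (SE 0.10, adjusted p = 9.99e-09) on the log2 scale. INCENP (chr11:61891470-61920641) had 5400 and 4988 normalized counts in vehicle, 3752 and 4146 after 1 h, and 2062 and 1810 after 10 h. Here the levels stepped down at each time without overlap, with -1.42 (SE 0.10, adjusted p = 1.24e-07) at 10 h. AURKB and BIRC5 fell by 1.61 and 1.54 on the log2 scale. At 1 h AURKB (-0.80), INCENP (-0.40) and CDCA8 (-0.24) fell, while BIRC5 gave 0.11 (SE 0.09, adjusted p = 0.317). The call of CDCA8 at 1 h was lost without either Nut 0h replicate or without Nut 1h replicate 1, with the GC offset (-0.13, adjusted p = 0.163) and with the length offset (0.0023, adjusted p = 0.984), and that of INCENP without Nut 1h replicate 1. All 4 transcripts have a GC content above 50%, and with the GC offset INCENP (0.32) and BIRC5 (0.29, adjusted p = 0.00279) rose at 1 h. BIRC5 rose with the length offset as well (0.32, adjusted p = 0.00525).

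The spindle checkpoint holds the cell in metaphase until every kinetochore is attached. Its kinases BUB1 and TTK (MPS1), the pseudokinase BUB1B (BUBR1) and MAD2L1 (MAD2), the protein that is turned into the inhibitor of CDC20, fell at 10 h by 1.30 to 1.72 on the log2 scale, and BUB3, the adaptor that brings BUB1 and BUB1B to kinetochores, by far less. BUB1 (chr2:111395105-111435640) had 4862 and 5106 normalized counts in vehicle, 6700 and 6653 after 1 h, and 1486 and 1531 after 10 h. The vehicle libraries stood more than 3-fold above the Nut 10h libraries, and the log2 fold change at 10 h was -1.72 (SE 0.09, adjusted p = 7.77e-09). BUB3 (chr10:124913918-124929983) had 8165 and 7345 normalized counts in vehicle, 9105 and 9504 after 1 h, and 6611 and 6342 after 10 h. Its groups did not overlap, but the gap was small, with -0.26 (SE 0.09, adjusted p = 0.0498), and the call was lost whenever any 1 of the 6 libraries was left out.

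MAD2L1 (chr4:120976778-120988013) had 2841 and 2975 normalized counts in vehicle, 5974 and 5823 after 1 h, and 1088 and 1269 after 10 h. Its Nut 1h libraries were the highest of the 6 and its Nut 10h libraries the lowest, without overlap, with 1.02 (SE 0.10, adjusted p = 9.68e-07) at 1 h and -1.30 (SE 0.10, adjusted p = 2.48e-07) at 10 h. All 5 checkpoint genes rose at 1 h, from 0.26 for BUB3 upward, although the call of BUB3 at 1 h was lost when any library but Nut 0h replicate 1 was left out. With the GC offset MAD2L1 alone of the 5 stayed up (0.26), BUB3 fell (-0.37), and BUB1, BUB1B and TTK were not called (-0.15, -0.061 and -0.036).

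Anaphase is set off when CDC20 activates the anaphase-promoting complex, whose ubiquitin-conjugating enzyme is UBE2C, and securin (PTTG1) is destroyed to free separase (ESPL1), the protease that cuts cohesin. These 4 genes were the only group in which every gene fell at both 1 h and 10 h. ESPL1 (chr12:53662083-53687422) had 5495 and 5443 normalized counts in vehicle, 3454 and 3442 after 1 h, and 1696 and 1557 after 10 h. The replicates of each condition lay close together and the 3 conditions were apart, with -0.67 (SE 0.09, adjusted p = 1.71e-05) at 1 h and -1.75 (SE 0.09, adjusted p = 7.77e-09) at 10 h. PTTG1 (chr5:159848862-159855746) had 4195 and 4251 normalized counts in vehicle, 3079 and 3095 after 1 h, and 2092 and 1962 after 10 h. It took the same downward steps on a smaller scale, with -0.45 (SE 0.09, adjusted p = 4.32e-04) at 1 h and -1.06 (SE 0.09, adjusted p = 6.51e-07) at 10 h. CDC20 fell by 0.82 and 1.65 and UBE2C by 0.57 and 1.13 on the log2 scale at 1 h and 10 h. With the GC offset the falls of UBE2C (-0.57) and PTTG1 (-0.51) at 1 h stayed called, and those of CDC20 (-0.17) and ESPL1 (-0.083) did not. Near-identical copies of PTTG1, UBE2C and CDC20 exist in the genome, so their counts may include or miss shared reads.

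Entry into mitosis depends on the CDC25 phosphatases, which remove the inhibitory phosphates from CDK1 and CDK2, and CKS2 is a small subunit of the CDK complexes. CDC25A, which also acts at the start of S phase, fell most of all 55 genes. Its paralog CDC25B and the centromere gene CENPH (both -0.50) fell least but for BUB3. Their order turned with the GC offset (-0.536 for CDC25B and -0.535 for CENPH). CDC25A (chr3:48198636-48229907) had 1712 and 1709 normalized counts in vehicle, 2252 and 2549 after 1 h, and 321 and 322 after 10 h. Vehicle libraries were 5.32-fold above the Nut 10h libraries, with -2.41 (SE 0.11, adjusted p = 2.31e-09) at 10 h, after a rise of 0.49 (SE 0.10, adjusted p = 4.60e-04) at 1 h that was 0.64 with the GC offset. CDC25B (chr20:3767419-3786768) had 16407 and 15166 normalized counts in vehicle, 8341 and 8908 after 1 h, and 11607 and 10695 after 10 h.

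For CDC25B the lowest libraries were those at Nut 1h, with -0.87 (SE 0.09, adjusted p = 2.74e-06) at 1 h and -0.50 (SE 0.09, adjusted p = 0.00118) at 10 h. The call at 1 h ended under the GC offset (-0.14, adjusted p = 0.122). CDC25B was the only gene of the 55 that rose from Nut 1h to Nut 10h (0.37, SE 0.09, adjusted p = 0.00314), a call that was lost without Nut 1h replicate 1 and was a fall of 0.40 with the GC offset. CDC25C, the phosphatase most tied to CDK1 and mitosis, gave 0.091 at 1 h, not called, and fell by 1.50 at 10 h. At 1 h CDC25C rose with the length offset (0.36, adjusted p = 0.00618) and gave -0.10, not called, with the GC offset. CKS2 rose by 0.52 at 1 h, a value that turned to -0.091, not called, under the GC offset, and fell by 1.01 at 10 h.

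The Ndc80 complex is the main microtubule receptor of the outer kinetochore, a rod built of the pairs NDC80 with NUF2 and SPC24 with SPC25. All 4 subunits fell at 10 h, by 1.24 to 1.82 on the log2 scale. NDC80 (chr18:2571556-2616634) had 1267 and 1355 normalized counts in vehicle, 2092 and 2143 after 1 h, and 353 and 387 after 10 h. The Nut 1h libraries were the highest and the Nut 10h libraries the lowest, with 0.69 (SE 0.10, adjusted p = 2.26e-05) at 1 h and -1.82 (SE 0.10, adjusted p = 1.49e-08) at 10 h. SPC25 (chr2:169690642-169769881) had 739 and 708 normalized counts in vehicle, 1063 and 975 after 1 h, and 304 and 309 after 10 h. It followed the same course, with 0.50 (SE 0.10, adjusted p = 6.20e-04) at 1 h and -1.24 (SE 0.11, adjusted p = 9.08e-07) at 10 h. NUF2 rose at 1 h too (0.88), whereas SPC24, with the highest GC content of the 4 subunits (53.3%), gave -0.14 (SE 0.10, adjusted p = 0.225). None of the 4 was called at 1 h with the GC offset (-0.0086 for NDC80, 0.15 for NUF2, 0.15 for SPC24 and -0.19 for SPC25).

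Of the 8 centromere genes, CENPA encodes the histone H3 variant that marks the centromere, CENPH, CENPI, CENPK, CENPM and CENPN encode proteins of the constitutive network that sits on it, CENPE is a kinesin of the outer kinetochore and CENPF a large protein of the kinetochore corona. All 8 fell at 10 h, CENPA most and CENPH least. CENPA (chr2:26987157-27023935) had 1237 and 1066 normalized counts in vehicle, 759 and 816 after 1 h, and 312 and 244 after 10 h. Each condition lay below the one before it, and the fall at 10 h was 4.14-fold, -2.05 (SE 0.13, adjusted p = 4.46e-08). CENPH (chr5:68485401-68506184) had 567 and 616 normalized counts in vehicle, 745 and 774 after 1 h, and 421 and 414 after 10 h. The Nut 10h mean was 70.5% of the vehicle level, with -0.50 (SE 0.11, adjusted p = 0.00271).

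CENPF (chr1:214776528-214837917) had 6011 and 6778 normalized counts in vehicle, 15433 and 13047 after 1 h, and 1901 and 2149 after 10 h. It had the largest rise of the 55 genes at 1 h (1.16, SE 0.11, adjusted p = 9.60e-07), and it then fell below vehicle at 10 h (-1.66, SE 0.11, adjusted p = 8.07e-08). CENPE (0.86), CENPI (0.77), CENPK (0.83) and CENPH (0.36) also rose at 1 h. The call of CENPH at 1 h was lost without Nut 0h replicate 1 or Nut 1h replicate 2, and by DESeq2 (0.31, adjusted p = 0.0705). None of these 4 was called as a rise with the GC offset (-0.053 for CENPE, 0.094 for CENPI and -0.21 for CENPH), and CENPK fell (-0.27, adjusted p = 0.0390). CENPM and CENPA fell (-0.96 and -0.55), and CENPN gave 0.21 (SE 0.09, adjusted p = 0.0516), but -0.28 with the GC offset. With the length offset CENPN rose (0.25, adjusted p = 0.0165). CENPM was the only gene of the set not called between Nut 1h and Nut 10h (-0.22, SE 0.12, adjusted p = 0.120). It fell in that comparison with the GC offset (-1.18, adjusted p = 6.30e-09), where BUB3 was not called instead, with the length offset (-0.48, adjusted p = 0.00157) and without Nut 10h replicate 1 (-0.35, adjusted p = 0.0232). Its fall at 1 h came to -0.026, not called, once the GC offset was added. CENPA shares its locus on the same strand with SLC35F6, so reads of the overlap cannot be assigned with certainty. The same holds for genes with a neighbour on the opposite strand, such as KIF20A with BRD8 and NCAPD2 with MRPL51, since the strand setting of the counting is not given in the sources used here.

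Spindle assembly is represented by the kinase AURKA, its activator TPX2, the microtubule binders NUSAP1, HMMR and DLGAP5 (HURP), and ASPM, a protein of the spindle poles. All 6 fell at 10 h, by 1.24 to 1.73 on the log2 scale. ASPM (chr1:197053251-197115824) had 1658 and 1910 normalized counts in vehicle, 3753 and 3321 after 1 h, and 474 and 605 after 10 h. The Nut 1h libraries were the highest and the Nut 10h libraries the lowest, with 0.99 (SE 0.12, adjusted p = 6.59e-06) at 1 h and -1.73 (SE 0.13, adjusted p = 1.66e-07) at 10 h. NUSAP1 (chr15:41612992-41673248) had 5148 and 5254 normalized counts in vehicle, 6660 and 7063 after 1 h, and 2163 and 2242 after 10 h. Its pattern had the same shape and a smaller span, with 0.40 (SE 0.09, adjusted p = 0.00117) at 1 h and -1.24 (SE 0.09, adjusted p = 1.52e-07) at 10 h. HMMR and DLGAP5 rose by 0.87 and 0.84 at 1 h and fell by 1.50 and 1.56 at 10 h. AURKA and its activator TPX2 were not called at 1 h (0.13 and 0.040) and fell by 1.65 and 1.29 at 10 h. With the length offset AURKA rose at 1 h (0.38, adjusted p = 0.00129). Under the GC offset the 1 h rise of NUSAP1 stayed called (0.27), those of ASPM, HMMR and DLGAP5 did not (0.18, 0.014 and 0.076), and TPX2 fell (-0.22, adjusted p = 0.0183).

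The 10 kinesin motors all fell at 10 h, with a median of -1.71. KIFC1 (HSET), a minus-end motor that gathers spindle poles, fell most. KIFC1 (chr6:33359600-33377673) had 5763 and 5236 normalized counts in vehicle, 3929 and 4331 after 1 h, and 1453 and 1236 after 10 h. The conditions stepped down without overlap, with -0.41 (SE 0.10, adjusted p = 0.00280) at 1 h and a 4.09-fold fall, -2.03 (SE 0.11, adjusted p = 8.46e-09), at 10 h. Its call at 1 h was lost without Nut 1h replicate 1 and with the length offset (-0.17, adjusted p = 0.116), and with the GC offset it rose at 1 h (0.21, adjusted p = 0.0267). KIF20B (MPP1), a motor of cytokinesis, fell least. KIF20B (chr10:91461347-91534696) had 1965 and 2083 normalized counts in vehicle, 3769 and 3442 after 1 h, and 749 and 865 after 10 h. The Nut 1h libraries were the highest of the 6, with 0.83 (SE 0.10, adjusted p = 6.18e-06) at 1 h, -0.15 and not called under the GC offset, and -1.33 (SE 0.10, adjusted p = 3.07e-07) at 10 h.

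KIF14, a motor that acts with citron kinase in cytokinesis, had 1498 and 1559 normalized counts in vehicle, 3361 and 3129 after 1 h, and 442 and 512 after 10 h (chr1:200520625-200589879). Its Nut 1h libraries were the highest and its Nut 10h libraries the lowest, with 1.09 (SE 0.10, adjusted p = 6.98e-07) at 1 h, 0.32 with the GC offset, and -1.68 (SE 0.11, adjusted p = 3.66e-08) at 10 h. KIF2C (MCAK), which takes microtubules apart at the centromere, and KIF20A (MKLP2), which carries the passenger complex to the midzone, fell by 1.91 and 1.86 at 10 h without a call at 1 h (-0.15 and 0.046). With the length offset KIF20A rose at 1 h (0.20, adjusted p = 0.0417). KIF11 (Eg5), the motor that pushes the poles apart, fell by 1.81 and KIF23 (MKLP1), of the centralspindlin complex, by 1.75, after rises of 0.85 and 0.75 at 1 h. KIF15, KIF18A and KIF4A fell by 1.53, 1.45 and 1.35 after rises of 0.62, 0.55 and 0.34, where KIF4A has a near-identical copy, KIF4B, that may share its reads. The call of KIF4A at 1 h was lost without Nut 0h replicate 1 or Nut 1h replicate 2. Of these 5 kinesins with a rise at 1 h, none rose under the GC offset, which gave 0.15 for KIF11, 0.19 for KIF23, -0.012 for KIF15 and 0.029 for KIF4A, none of them called, and a fall of KIF18A (-0.32, adjusted p = 0.00308).

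Of the 4 cytokinesis genes, PRC1 bundles the microtubules of the midzone, RACGAP1 is the partner of KIF23, ECT2 is the exchange factor that activates RhoA and ANLN (anillin) is a scaffold of the contractile ring. All 4 fell at 10 h, by 1.06 to 1.57. ANLN (chr7:36429430-36493400) had 6846 and 7529 normalized counts in vehicle, 9084 and 9473 after 1 h, and 2354 and 2490 after 10 h. The levels at 1 h were the highest, with 0.37 (SE 0.09, adjusted p = 0.00285), and those at 10 h were 33.7% of vehicle, with -1.57 (SE 0.10, adjusted p = 2.62e-08). The call of ANLN at 1 h was lost without Nut 0h replicate 1. ECT2 (chr3:172468472-172539264) had 3515 and 3894 normalized counts in vehicle, 6843 and 6587 after 1 h, and 1594 and 1962 after 10 h. It rose more at 1 h (0.86, SE 0.11, adjusted p = 9.06e-06) and fell less at 10 h (-1.06, SE 0.11, adjusted p = 5.28e-06). RACGAP1 gave 0.24 and -1.27, its rise at 1 h being lost when any 1 library was left out, and PRC1 gave -0.016, not called, and -1.47. With the GC offset ANLN (-0.32) and RACGAP1 (-0.23) fell at 1 h, and the rise of ECT2 was not called (0.087).

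The condensins compact the chromosomes. SMC2 and SMC4 are the ATPase core of both condensin complexes, NCAPD2, NCAPG and NCAPH are the other subunits of condensin I, and TOP2A is the topoisomerase that untangles sister chromatids. All 6 fell at 10 h, with a median of -1.17. NCAPH (chr2:97001504-97042829) had 3218 and 3334 normalized counts in vehicle, 3380 and 3654 after 1 h, and 1042 and 1067 after 10 h. Vehicle and Nut 1h were close, with 0.10 (SE 0.09, adjusted p = 0.329) at 1 h, and Nut 10h lay far below, with -1.63 (SE 0.09, adjusted p = 1.54e-08). NCAPD2 (chr12:6602522-6641121) had 17436 and 17379 normalized counts in vehicle, 15806 and 16020 after 1 h, and 10155 and 10053 after 10 h. Its fall was the smallest of the group, -0.78 (SE 0.09, adjusted p = 1.21e-05), and its level at 1 h gave -0.13 (SE 0.09, adjusted p = 0.204). NCAPG fell by 1.52, SMC4 by 1.28, TOP2A by 1.06 and SMC2 by 1.02, and these 4 had risen by 0.55, 0.71, 0.62 and 0.88 at 1 h. None of the 6 genes rose at 1 h under the GC offset. NCAPG (-0.19, adjusted p = 0.0332) and NCAPH (-0.21, adjusted p = 0.0193) fell, and SMC4 (-0.095), TOP2A (-0.11), SMC2 (0.086) and NCAPD2 (0.0046) were not called. The call of NCAPG was lost when a replicate block was added to the offset (-0.19, adjusted p = 0.0539).

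**Figure D4:**
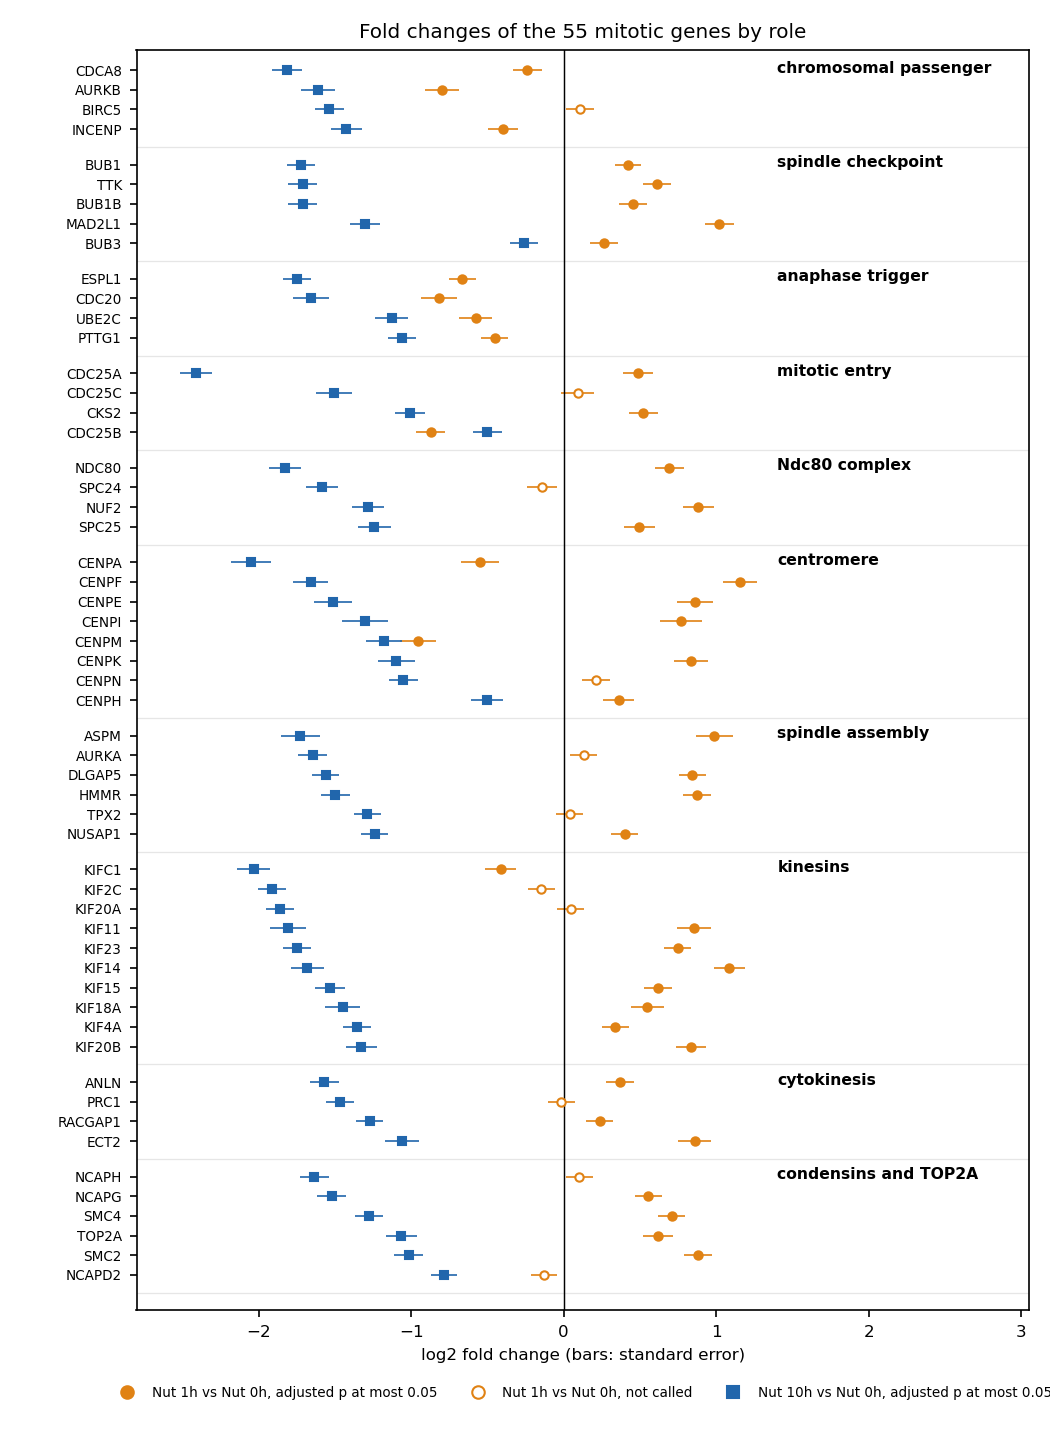
Log2 fold changes (horizontal axis, bars give the standard error) of the 55 genes by role at Nut 1h (orange circles, open where not called) and Nut 10h (blue squares) against Nut 0h. All blue squares lie left of 0, from -2.41 to -0.26, and the orange circles lie on both sides, from -0.96 to 1.16.

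**Figure D5:**
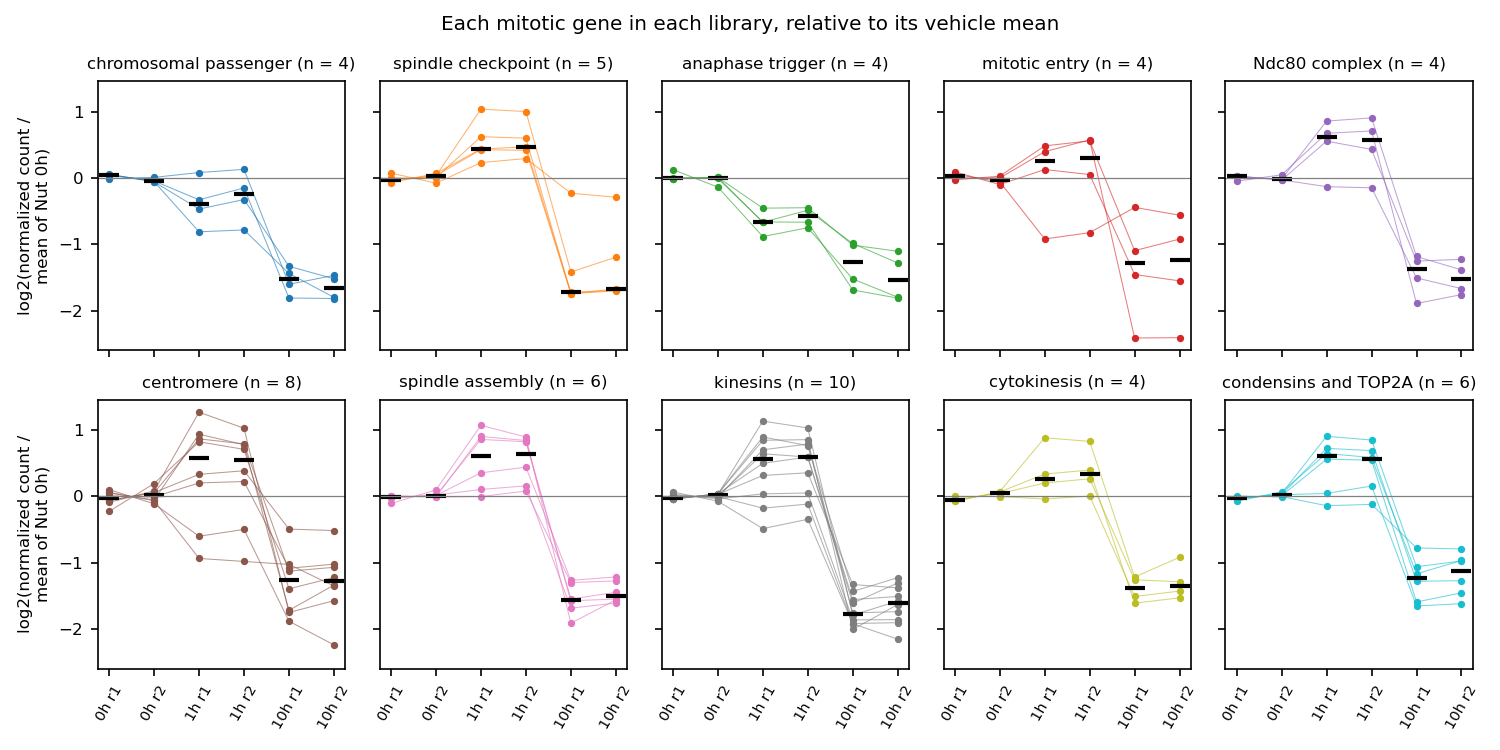
Normalized count of each gene in each of the 6 libraries relative to its mean at Nut 0h, on a log2 scale, in 1 panel per role, with black bars at the median of the panel's genes in that library (r1 and r2 are replicates 1 and 2). The anaphase and passenger genes lie mostly below 0 at 1 h while the other panels have medians above 0, and at 10 h every gene is below 0 in both libraries.

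The replicates were close compared with these changes. The median absolute log2 ratio between the 2 replicates over the 55 genes was 0.07 for vehicle, 0.06 at 1 h and 0.10 at 10 h, the widest pair being at 0.42 (CENPI at Nut 0h). Between Nut 1h and Nut 10h 53 of the 55 genes fell, CDC25B rose and CENPM was not called, where 33.7% of all genes tested fell and 34.2% rose, and the median was -1.76. With the GC offset 54 fell and none rose in this comparison, against 28.8% and 29.0% of all genes tested. The 3 comparisons share libraries, so their values are not independent of each other.

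Per length of transcript (TPM, computed from the counts and the longest transcript), the 55 genes covered a wide range at Nut 0h. CDC20 was the highest, with 1080 and 933 TPM in vehicle and 336 and 294 after 10 h. UBE2C, CDC25B and CKS2 followed with means of 466, 379 and 355 TPM at Nut 0h, and the next, PTTG1 and AURKB, had replicates that overlapped (288 and 303 against 297 and 287 TPM). CENPI was the lowest, with 4.72 and 6.55 TPM in vehicle and 2.05 and 2.45 after 10 h. At Nut 10h CDC20 was still the highest, CDC25B came next (267 and 261 TPM), and CENPE, KIF14, ASPM and CENPI had the lowest means (4.95, 4.84, 3.61 and 2.25 TPM). Against the log2 of the mean level at Nut 0h the fold change at 10 h had r = 0.07 across the 55 genes.

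Most of the other mitotic genes listed moved alongside. Of 71 further genes of the kinetochore, spindle, anaphase-promoting complex and cell division, all tested, 60 fell and none rose at 10 h (median -1.28), and 41 rose and 19 fell at 1 h (median 0.38), against 14.9% of all genes tested that fell at 10 h and 34.5% and 32.3% that rose and fell at 1 h. With the GC offset 8 of the 71 rose and 19 fell at 1 h (median -0.051), against 20.0% and 25.3% of all genes tested. Polo-like kinase 1 (PLK1), which drives mitosis at many steps, had 12977 and 11717 normalized counts in vehicle, 6315 and 7136 after 1 h, and 3039 and 2704 after 10 h. It stepped down at both times, by 0.88 and 2.10 on the log2 scale, with -0.29 at 1 h under the GC offset. Cyclin B1 (CCNB1) had 7204 and 7425 normalized counts in vehicle, 10568 and 10572 after 1 h, and 2286 and 2409 after 10 h. It rose by 0.53 at 1 h, -0.051 with the GC offset, and fell by 1.64 at 10 h. Its kinase partner CDK1 had 3214 and 3300 normalized counts in vehicle, 5638 and 5493 after 1 h, and 1840 and 2007 after 10 h. It too was highest at 1 h (0.77, -0.051 with the GC offset) and fell by 0.76 at 10 h, less than 52 of the 55 genes above.

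The largest fall of the 71 at 10 h was that of FBXO5 (EMI1), the inhibitor of the anaphase-promoting complex, at -2.22 (SE 0.11, adjusted p = 4.76e-09). At 1 h the largest rise was that of MIS12, a core kinetochore protein (1.39, SE 0.13, adjusted p = 1.06e-06), and the largest fall that of UBE2S (-1.67, SE 0.14, adjusted p = 4.45e-07), the enzyme that extends ubiquitin chains on the substrates of that complex. Under the GC offset their values at 1 h were 0.69 and -1.18. No gene of the 71 rose at 10 h, and 11 were not called. Among these were the kinetochore and checkpoint genes CENPP (-0.41), CENPT (-0.23), CENPW (-0.31), PMF1 (-0.45) and MAD1L1 (-0.21). The kinesins KIF3B (0.12) and KIFC3 (-0.060) were not called either. With the GC offset 66 fell, none rose and 5 were not called at 10 h, where 22.5% of all genes tested fell. Of the 9 subunits of the anaphase-promoting complex itself among the 71, ANAPC4, ANAPC5, ANAPC11, CDC23 and CDC27 fell, from -0.44 to -0.33, and ANAPC1, ANAPC7, ANAPC10 and CDC16 were among those not called without the offset (-0.25, -0.069, -0.053 and 0.094). With the GC offset ANAPC1 fell at 10 h (-0.28, adjusted p = 0.00736), and ANAPC7, ANAPC10 and CDC16 were still not called.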

How the data were processed

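RNA of 6 HCT116 libraries was sequenced with paired ends. Per the labels and the study's methods, the authors trimmed the reads (Trim Galore 0.6.6), aligned them to GRCh37.p13 with STAR 2.7.0f and counted them per gene with featureCounts (Subread 2.0.0); strand and multi-mapping settings are not given in the sources used here. The deposited values are raw counts per gene. A second deposited table of the authors' comparisons, made with DESeq2 1.36.0 (fold changes and p-values), was used only to pair gene identifiers with symbols.

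The 55 genes, the other lists, the rule for named genes (in each role the highest and lowest fold change at 10 h, and any called change of at least 1 on the log2 scale at 1 h) and the tests were chosen with earlier results of these data known. In R 4.3.3, edgeR 4.0.16 (low-count filter, TMM, quasi-likelihood test) was fitted to all 6 libraries and all genes, with condition as the only term and 3 residual degrees of freedom. Calls are at an adjusted p of 0.05 or less. GC content and length are those of the longest GENCODE v44 transcript lifted to GRCh37; the GC offset is a loess curve (span 0.4) per library, and 97.4% of tested genes had a value. Alternatives were DESeq2 1.42.0 and its size factors, no filter, the replicate block, 2 conditions only, GC and length offsets, and leaving out each library. The procedure was tested on simulated counts, once with set fold changes at 10 h and once with a set linear GC trend at 1 h. The second held no other change, so it cannot show what the offset does to changes that go along with GC content. A planned search of protein sequences for degradation motifs was not run, as no protein table was used here.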

Additional observations from a re-analysis of the deposited data

How the results depend on the processing

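All 55 genes had a negative log2 fold change at 10 h under every alternative run, and 54 or 55 of them fell. BUB3 lost its call with the replicate block, with only the 2 conditions compared, and without any 1 library (54 fell each time). At 1 h the number that rose was 29 to 31 and the number that fell 8 to 11 when 1 library was left out; CDCA8, CENPH, KIF4A, ANLN and RACGAP1 lost the call without Nut 0h replicate 1, CDCA8, BUB3 and RACGAP1 without Nut 0h replicate 2, INCENP, CDCA8, BUB3, KIFC1 and RACGAP1 without Nut 1h replicate 1, BUB3, CENPH, KIF4A and RACGAP1 without Nut 1h replicate 2, and BUB3 and RACGAP1 without either Nut 10h replicate. From Nut 1h to Nut 10h the number that rose was 0 without Nut 1h replicate 1 and with the GC-content offset, with or without the replicate block, and otherwise 1, while 53 or 54 fell in every setting.

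The GC-content offset moved the 1 h result most: 8 rose and 13 fell, and the median was -0.091 (-0.092 with the replicate block). With the replicate block added 12 fell, as NCAPG lost its call. Signs turned for INCENP (0.32), BUB1 (-0.15), BUB1B (-0.061), BUB3 (-0.37), TTK (-0.036), CKS2 (-0.091, -0.092 with the block), NDC80 (-0.0086), SPC25 (-0.19), CENPE (-0.053, -0.052 with the block), CENPH (-0.21), CENPK (-0.27), CENPN (-0.28), TPX2 (-0.22), KIF15 (-0.012), KIF18A (-0.32, -0.33 with the block), KIF20B (-0.15), KIFC1 (0.21), ANLN (-0.32), RACGAP1 (-0.23), NCAPG (-0.19), NCAPH (-0.21), SMC4 (-0.095, -0.094 with the block), TOP2A (-0.11), CCNB1 (-0.051), CDK1 (-0.051, -0.050 with the block) and FBXO5 (-0.33), and for 5 of the 55 genes called in neither fit, CDC25C (-0.10), SPC24 (0.15), AURKA (-0.15), KIF20A (-0.094) and NCAPD2 (0.0046). The length offset turned CDCA8 (0.0023) and BUB3 (-0.013) at 1 h, added calls of rises for BIRC5 (0.32), CDC25C (0.36), CENPN (0.25), AURKA (0.38) and KIF20A (0.20), and ended the call of the fall of KIFC1 (37 rose and 9 fell). DESeq2 lost the 1 h calls of BUB3, CENPH and RACGAP1, the fit without a filter those of BUB3 and RACGAP1, and DESeq2 size factors that of RACGAP1. From Nut 1h to Nut 10h the GC offset gave 0.080 for BUB3 (0.074 with the block) and -0.40 for CDC25B, and CENPM was called with the GC offset, the length offset and without Nut 10h replicate 1. The cause was not tested.

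Whether the replicate numbers pair the samples is not stated in the sources used here. Same-numbered libraries deviated together with r of -0.13 (Nut 0h and Nut 1h), 0.20 (Nut 0h and Nut 10h) and -0.12 (Nut 1h and Nut 10h). These values cannot show how the samples were handled. In the fit with the replicate block 33 rose and 11 fell at 1 h, 54 fell at 10 h and 53 fell from 1 h to 10 h.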

Other observations

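The DNA replication machinery, a list of 40 genes that are also tied to the cell cycle, fell over the same 10 h, but TTTGAA was not found in its promoter windows. Of the 40 genes 36 fell and none rose at Nut 10h against Nut 0h (median log2 fold change -1.26 by edgeR), and 21 rose and 9 fell at Nut 1h (median 0.29), against 14.9% of all genes tested that fell at 10 h and 34.5% and 32.3% that rose and fell at 1 h. Under the GC offset 11 rose and 8 fell at 1 h (median -0.037), against 20.0% and 25.3% of all genes tested. TTTGAA was found in 0 of the 34 replication genes with a RefSeq promoter window, against 34 of 46 mitotic genes and 30 of the 59 other mitotic genes with a window. The E2F letters were found in 17 of the 34 replication genes, against 4 of 46 mitotic genes (8.70%) and 7 of 59 other mitotic genes (11.9%). CCAAT was found in 58.8%, 76.1% and 71.2% of the 3 sets. These shares are counts of letters in windows and were not tested.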
